A study of Homo sapiens with 12 samples.

Results

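The mitochondrial ribosomal proteins examined here are the genes of the array annotation whose symbols read MRPL or MRPS followed by a number, with or without a closing A, B or C. Taken from probe sets with a single gene symbol, 1 per gene, these were 75 of the 19775 genes on the array, 48 of them MRPL and 27 MRPS. MRPL53 and MRPS24 appeared only on probe sets that name several genes and are not among them. Signal is the scaled intensity of a probe set, and differences are on the scale of log2(signal + 3), which slightly understates changes of dim genes. All 75 lay above the limit for low signal, a mean of 12.55, so the counts below run over every member, beside the 11548 of all genes that passed it. A gene is said to pass where its limma p, adjusted over these 11548 genes, was under 0.05.

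The arrays come from Z-138 and Maver-1, established cell lines from mantle cell lymphoma, which is a tumour of B cells with a cyclin D1 translocation. Per the labels Z-138 carries a TRAF2 nonsense alteration and Maver-1 a TRAF3 deletion, both in the pathway of the kinase NIK, which MAP3K14 encodes. Each line held one of 3 doxycycline-inducible short hairpins, either a non-targeting control (NTC) or NIKsh#1 or NIKsh#2 against MAP3K14, and every culture was kept in puromycin. Doxycycline was given at 0 or 100 ng/ml for 7 days to each of the 6 cultures, and the pairs of arrays make 12 arrays in 8 groups by line, knockdown and doxycycline. The NIKsh groups held 2 arrays each, 1 per hairpin, and the NTC groups held 1. Doxycycline was present whenever a hairpin was induced, so in the NIKsh cultures the drug and the loss of MAP3K14 cannot be told apart, and the NTC cultures received the drug together with a control hairpin. Nothing in the labels says whether a culture is a clone, and p-values therefore measure only the spread between these cultures.

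Mitochondria build the few proteins encoded in their own genome on a ribosome of their own, the mitoribosome. Its proteins are made in the cytosol from nuclear genes, are imported and assemble with ribosomal RNA into a large subunit, which forms peptide bonds, and a small subunit, which reads the message. Some descend from bacterial ribosomal proteins and others are found in no bacterial ribosome, and tetracyclines such as doxycycline, which bind the bacterial small subunit, also slow mitochondrial translation. By the subunit in which the protein sits, 50 members belonged to the large and 25 to the small subunit. Of the large subunit members 30 have a bacterial homologue and 20 do not, and of the small subunit members 16 do and 9 do not. MRPS18A and MRPS30 are counted with the large subunit, where their proteins are built in despite their names.

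Upstream sequence was searched in all members for which it was given, and is shown for some that differed between the lines. RefSeq promoters of GRCh38.p14, from 250 bases before to 50 bases after the annotated start, were given for 67 of the 75 members. The sequence CCGGAAG, which the ETS family of transcription factors can bind, was searched on both strands and stood in 28 of these 67 windows (41.8%), against 20.2% of the windows of 9472 genes above the signal limit and 10.7% of 27305 promoters. AAGATGG, the core of the YY1 site, stood in 22 (32.8%), against 7.90% and 6.06%. GCGCATGC, the NRF1 site, stood in 6 (8.96%), against 5.82% and 3.27%, and TATAAA in 2 (2.99%), against 5.63% and 12%. CCGGAAG and AAGATGG can share the letters AAG, so 1 stretch may count for both, and a match describes letters only. Described in detail further on are the members with the 6 highest and 6 lowest line differences among those that passed with no overlap between the untreated arrays of the lines. Of these 12 a promoter was given for 11, and shown here are the 120 bases before the start for the 6 that hold CCGGAAG or its reverse complement in that stretch, with the match in capitals, 5′ to 3′ on the gene's strand. They are printed because the same letters stand before members higher in Z-138 and before members lower in it. No share over all genes is given for a stretch of 120 bases, so 6 of 11 has nothing to be compared with.
MRPL33, higher in Z-138 (chr2:27771599-27771718, plus strand): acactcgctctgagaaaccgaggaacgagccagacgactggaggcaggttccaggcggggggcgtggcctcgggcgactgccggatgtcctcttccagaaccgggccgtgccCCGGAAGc
MRPL58, higher in Z-138 (chr17:75012550-75012669, plus strand): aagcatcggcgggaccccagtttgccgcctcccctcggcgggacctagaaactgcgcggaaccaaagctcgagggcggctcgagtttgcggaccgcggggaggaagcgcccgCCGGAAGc
MRPS18A, higher in Z-138 (chr6:43687792-43687911, minus strand): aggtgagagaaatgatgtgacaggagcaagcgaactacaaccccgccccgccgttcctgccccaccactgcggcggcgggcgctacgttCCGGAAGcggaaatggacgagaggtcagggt
MRPL48, lower in Z-138 (chr11:73787754-73787873, plus strand): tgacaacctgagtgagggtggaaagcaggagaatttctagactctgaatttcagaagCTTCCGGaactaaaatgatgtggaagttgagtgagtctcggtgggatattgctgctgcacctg
MRPS10, lower in Z-138 (chr6:42217862-42217981, minus strand): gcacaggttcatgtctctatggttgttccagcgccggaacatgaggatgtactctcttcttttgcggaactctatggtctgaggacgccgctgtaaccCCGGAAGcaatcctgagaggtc
MRPS34, lower in Z-138 (chr16:1773135-1773254, minus strand): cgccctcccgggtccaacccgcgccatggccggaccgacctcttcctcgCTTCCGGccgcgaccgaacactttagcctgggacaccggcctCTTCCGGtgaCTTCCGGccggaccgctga

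Array medians ran from 10.6 to 14.1. MAP3K14, the target of the hairpins, read 55.2 untreated and 33.3 treated for Z-138 NIKsh#1, 52.0 and 49.2 for Z-138 NIKsh#2, 86.9 and 63.4 for Maver-1 NIKsh#1, and 79.3 and 55.7 for Maver-1 NIKsh#2. All 4 NIKsh cultures were lower with the drug, Z-138 NIKsh#2 least, while the NTC cultures were higher, at 46.4 and 55.4 for Z-138 and 77.2 and 132.7 for Maver-1. For ACTB the 3′ probe set over the 5′ probe set, a ratio that is higher in degraded or poorly copied RNA, was 2.33 untreated and 6.34 treated for Z-138 NTC, 2.86 and 4.62 for Z-138 NIKsh#1, and 2.92 and 5.09 for Z-138 NIKsh#2. Maver-1 had 6.88 and 4.43 for NTC, 4.68 and 4.32 for NIKsh#1, and 3.66 and 3.80 for NIKsh#2. This ratio moves with doxycycline in Z-138, and it also separates the lines. Without the drug all 3 Z-138 arrays (2.33 to 2.92) lay below all 3 of Maver-1 (3.66 to 6.88). With it all 3 Z-138 arrays (4.62 to 6.34) lay above those of Maver-1 (3.80 to 4.43). The same ratio for GAPDH was lower in untreated Z-138 (1.15 to 1.30) than in untreated Maver-1 (1.54 to 2.39). With doxycycline the lines overlapped in it, at 1.36 to 2.00 and 1.42 to 1.68. For Z-138 NIKsh#1 it moved only from 1.30 to 1.36. The part of either ratio in any value below was not tested. Of 7 B cell markers MS4A1 (2767.1 to 4005.8 over the 12 arrays), CD79A, CD79B and PAX5 were bright in both lines, while CD22 (29.4 to 97.6), CD37 (15.6 to 66.3 in Z-138) and BLK (26.2 to 82.9) were dim. CCND1 and SOX11, markers of mantle cell lymphoma, had signal in both lines, and CD5 reached only 1.6 in Z-138 and 33.7 to 70.8 in Maver-1. Among markers of other cell types CD3G (56.6 to 177.5) had signal in Z-138 only, and EPCAM (173.0 to 314.4) and KRT18 (54.9 to 88.2) in Maver-1 only. Both lines had signal for COL1A1, at 76.1 to 244.2 in Z-138 and 20.6 to 46.9 in Maver-1. The same held for PECAM1, at 44.8 to 397 in Z-138 and 549.7 to 929.1 in Maver-1. LYZ (up to 25.3), NKG7 (up to 22) and CD8A (up to 13.2) passed 12.55 on some arrays. CD3D, CD3E, CD2, CD14, CSF1R and VWF stayed under 12.55 on every array.

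The first question was whether doxycycline, given for 7 days, moved the transcripts of the mitoribosome. Over all 6 cultures 0 of the 75 members passed limma at an adjusted p under 0.05, as did 0 of the 11548 genes (0%). At an unadjusted p under 0.05 there were 8 members, all with a negative change and 7 of them of the large subunit, against 7.27% of all genes. The median change of the members was -0.06 on the log2 scale and 55 of 75 were negative (73.3%), beside a median of 0.02 and 45.1% negative for all genes. Single changes ran from -0.45 to 0.12, and the 95% interval of every member stayed within a 2-fold change, so that a 2-fold move of any of them across the 6 cultures lies outside its interval.

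The 4 members with the smallest p were MRPL12, MRPL11, MRPL28 and MRPL39, all of the large subunit. MRPL12 is the protein of the flexible stalk that recruits translation factors. It read 787.7 untreated and 708.0 treated for Z-138 NTC, 616.7 and 480.8 for Z-138 NIKsh#1, 692.3 and 480.4 for Z-138 NIKsh#2, 406.1 and 412.1 for Maver-1 NTC, 491.4 and 412.9 for Maver-1 NIKsh#1, and 474.9 and 320.6 for Maver-1 NIKsh#2. It was lower with the drug in 5 of 6 cultures, the exception being Maver-1 NTC, with a fitted change of -0.30 ± 0.10 (SE, limma adjusted p = 0.679). Its further probe set also had a mean of -0.30 over the 6 cultures. By line that probe set had -0.64 in Z-138 and 0.03 in Maver-1, against -0.34 and -0.26 in the one used. MRPL11 lies at the base of that stalk. Its signals, in the same order, were 1255.6 and 1046.1, 836.8 and 737.2, 783.1 and 723.8, 704.8 and 617.8, 678.0 and 614.6, and 733.7 and 548.5. Every culture was lower with doxycycline, by a fitted -0.22 ± 0.07 (limma adjusted p = 0.679). MRPL30 and MRPL35, also of the large subunit, were the only other members negative in all 6 cultures, which makes 3 of 75 (4%) against 1.7% of all genes, and 0 members were positive in all 6 against 2.34% of all genes. For MRPL35 the sign rests on changes of only -0.008 in Maver-1 NTC and -0.001 in Maver-1 NIKsh#1. Its further probe sets had means of 0.02 and -0.11 over the 6 cultures.

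MRPL28 gave 410.5 and 381.0 in Z-138 NTC, 333.1 and 198.1 in Z-138 NIKsh#1, 343.9 and 265.9 in Z-138 NIKsh#2, 288.5 and 319.2 in Maver-1 NTC, 463.1 and 383.8 in Maver-1 NIKsh#1, and 449.0 and 214.2 in Maver-1 NIKsh#2. The widest gaps were in single NIKsh cultures, NIKsh#1 in Z-138 and NIKsh#2 in Maver-1, and the fitted change over all cultures was -0.40 ± 0.15 (limma adjusted p = 0.679). MRPL39, a protein found in no bacterial ribosome, gave 1173.4 and 1048.5, 1045.7 and 901.6, 1052.4 and 815.8, 1055.1 and 1083.3, 1055.0 and 917.0, and 1092.0 and 989.1 in that order. Its change of -0.17 ± 0.07 (limma adjusted p = 0.679) was again negative everywhere but in Maver-1 NTC.

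**Figure D1:**
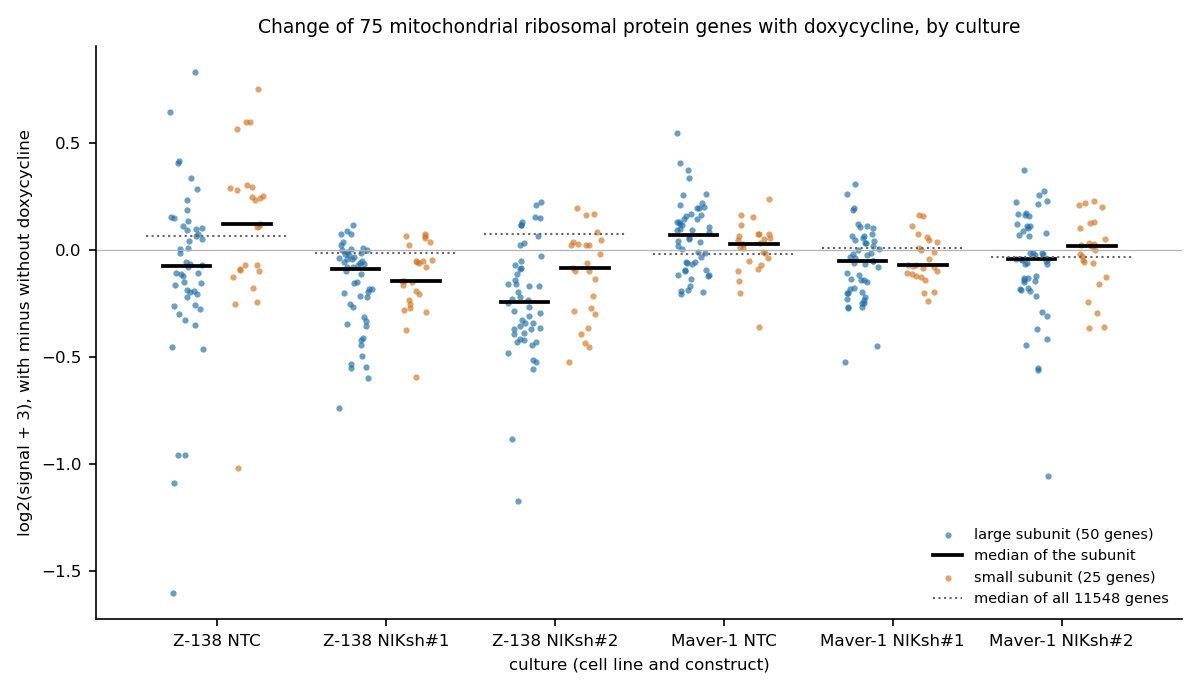
Change of the 75 genes with doxycycline in each of the 6 cultures, as log2(signal + 3) with minus without the drug. Points are genes, coloured by subunit, thick bars are the medians of the 50 large and 25 small subunit genes, and dotted lines the medians of all 11548 genes; the large subunit bar lies below the dotted line in 5 cultures and above it in Maver-1 NTC.

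The plot of changes by culture shows how uneven the 6 cultures were. Member medians were -0.06 for Z-138 NTC, -0.10 for Z-138 NIKsh#1 and -0.20 for Z-138 NIKsh#2, where 39, 60 and 55 of 75 changes were negative. For the Maver-1 cultures they were 0.05 (NTC), -0.06 (NIKsh#1) and -0.02 (NIKsh#2), where 29, 49 and 44 were negative. Z-138 NTC had the widest scatter, with a standard deviation over members of 0.41 against 0.15 to 0.25 in the other 5. Over all genes the scatter was widest there too, at 0.54 against 0.26 to 0.51. Z-138 NTC is also the culture whose ACTB ratio rose most. There MRPL41, MRPS18A, MRPS28, MRPL54 and MRPL23 had changes between -1.60 and -0.96, while MRPL19 and MRPS26 had 0.83 and 0.75.

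The next question was whether the NIKsh hairpins carried a change that the control hairpin did not. In the 4 NIKsh cultures 0 members passed limma at an adjusted p under 0.05, while 5 of 11548 genes did (0.0433%). An unadjusted p under 0.05 was reached by 10 members, all negative, against 8.98% of all genes. The median member change was -0.08 with 63 of 75 negative, beside 0.01 and 48.3% for all genes. In the 2 NTC cultures 0 members and 0 genes (0%) passed, no member reached an unadjusted p under 0.05 while 3.35% of all genes did, and the median was 0.02 with 32 negative, against 44% of all genes. That median was 0.05 in Maver-1 NTC alone and -0.06 in Z-138 NTC alone. The direct test of NIKsh minus NTC gave 0 members and 0 genes (0%). There 4 members were under an unadjusted 0.05 against 5.43% of all genes, the median difference was -0.11 and 59 of 75 differences were negative against 54.1%. All of these values share the same 6 cultures and are not independent of the ones before.

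In all 4 NIKsh cultures the change of 9 members lay below that in both NTC cultures, which is 12% of 75 against 6.45% of all genes. In the probe sets used these were MRPL2, MRPL4, MRPL12, MRPL16 and MRPL28 of the large subunit and MRPS12, MRPS14, MRPS15 and MRPS34 of the small. MRPL9 and MRPS10 lay above both NTC cultures in all 4, which is 2.67% against 7.12%. MRPL4, which lines the start of the peptide exit tunnel, had signals of 544.9 and 564.9 in Z-138 NTC, 449.3 and 306.8 in Z-138 NIKsh#1, 477.3 and 353.5 in Z-138 NIKsh#2, 377.8 and 409.8 in Maver-1 NTC, 448.4 and 372.1 in Maver-1 NIKsh#1, and 475.3 and 323.6 in Maver-1 NIKsh#2. Both NTC cultures were higher with the drug and all 4 NIKsh cultures lower. The change was -0.45 ± 0.11 in NIKsh (limma adjusted p = 0.227) and the difference from NTC -0.53 ± 0.19 (limma adjusted p = 0.884).

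MRPS34, a small subunit protein without a bacterial homologue, showed the same order of signs, with 516.0 and 615.2, 515.7 and 340.7, 485.0 and 375.9, 691.2 and 728.0, 714.6 and 604.4, and 584.0 and 522.5 in the 6 cultures as listed for MRPL4. Its difference between NIKsh and NTC was -0.50 ± 0.19 (limma adjusted p = 0.884). MRPS12, a protein of the decoding centre, gave 473.7 and 702.5, 664.4 and 511.4, 539.5 and 490.4, 1304.2 and 1228.1, 1291.7 and 1123.4, and 1194.2 and 1010.2. Here only Z-138 NTC was higher with doxycycline, and the difference was -0.48 ± 0.20 (limma adjusted p = 0.884). The further probe sets of MRPS12 did not follow the one used. Their mean changes were -0.51, -1.44 and -0.54 in Z-138 against 0.02, and 0.03, 0.34 and 0.46 in Maver-1 against -0.18. For MRPL28 the difference between NIKsh and NTC was -0.63 ± 0.26 and for MRPL12 the change in NIKsh was -0.42 ± 0.11 (limma adjusted p = 0.242), neither of which passed.

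In the NTC cultures, which had the drug and no hairpin against MAP3K14, the smallest p values belonged to MRPL9, MRPS28, MRPS15 and MRPS10, and none passed (limma adjusted p = 0.895 for each). The errors given here rest on a spread shared with the NIKsh cultures, as each line had 1 NTC culture. MRPL9 read 1943.1 untreated and 1627.0 treated for Z-138, and 1473.7 and 1294.7 for Maver-1, a change of -0.22 ± 0.10. MRPS15 read 1722.8 and 2095.5, then 1529.8 and 1712.9, a change of 0.22 ± 0.11. MRPS10 read 1100.1 and 973.9, then 1640.8 and 1427.5, a change of -0.19 ± 0.10. In the probe sets used MRPL9, MRPS15 and MRPS10 moved the same way in both lines. MRPS28 did not, with 607.9 and 298.3 for Z-138 but 827.4 and 854.5 for Maver-1 (-0.49 ± 0.24).

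The lines were then taken apart. In the 3 Z-138 cultures 1 of 75 members passed, MRPS18A, which was lower (limma adjusted p under 0.05), against 1.26% of all genes in either direction and 0.537% lower. At an unadjusted p under 0.05 there were 18 members against 21.4% of all genes, and 17 of the 18 were negative and 15 belonged to the large subunit. The median change was -0.12 with 53 of 75 negative, beside 0.04 and 43.4% for all genes. Members negative in all 3 Z-138 cultures numbered 33 (44%) against 15.3% of all genes. In Maver-1 0 members and 0 genes (0%) passed, 1 member was under an unadjusted 0.05 against 2.14% of all genes, the median was -0.02, and 43 were negative against 53.2%. Members negative in all 3 Maver-1 cultures numbered 14 (18.7%), near the 16.7% of all genes.

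MRPS18A encodes one of 3 relatives of the bacterial protein S18 and sits in the large subunit. Its gene lies on chromosome 6, from 43671202 to 43687791 (GRCh38.p14). It read 718.6 untreated and 335.6 treated for Z-138 NTC, 562.4 and 382.9 for Z-138 NIKsh#1, and 569.2 and 307.3 for Z-138 NIKsh#2. The Maver-1 arrays read 334.1 and 401.7 for NTC, 377.1 and 429.3 for NIKsh#1, and 418.9 and 487.3 for NIKsh#2. All 3 Z-138 arrays with the drug lay below all 3 without it, and each Maver-1 culture was slightly higher with it. The change in Z-138 was -0.84 ± 0.13, a 1.79-fold lower signal (limma adjusted p = 0.0413), while the 3 Maver-1 cultures had 0.26, 0.19 and 0.22. The difference between lines was -1.06 ± 0.19 and did not pass over all genes (limma adjusted p = 0.149). The gene's further probe set changed by -1.36 and 0.44, respectively. The call in Z-138 was lost without Z-138 NIKsh#2 (-0.82, limma adjusted p = 0.205) and without any single Maver-1 culture (0.0786 to 0.0939), and without Z-138 NIKsh#1 6 members passed in place of 1. The count of all genes passing in Z-138 moved as well, higher in 4 of the alternative runs and lower in 10. The ACTB ratio was higher with the drug in the same 3 cultures, and its part was not tested.

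MRPL23, whose protein stands at the exit of the peptide tunnel, had a change in Z-138 of similar size and wider error. It read 718.7 and 368.9 for Z-138 NTC, 553.9 and 391.5 for NIKsh#1 and 596.4 and 262.5 for NIKsh#2, against 311.8 and 414.2, 527.2 and 385.1, and 486.3 and 481.5 for the Maver-1 cultures. The Z-138 groups did not overlap and the Maver-1 groups did. The change of -0.88 ± 0.18 in Z-138 missed the threshold (limma adjusted p = 0.0520), and the difference between lines was -0.86 ± 0.26 (limma adjusted p = 0.270).

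MRPS28, MRPL54 and MRPL41 had the same pattern by line, with most of it in 1 culture. MRPS28, a relative of bacterial S1 in the small subunit, read 607.9 and 298.3, 679.2 and 656.0, and 724.6 and 503.9 for Z-138, against 827.4 and 854.5, 822.4 and 889.4, and 809.0 and 947.5 for Maver-1. MRPL54 read 946.2 and 486.0, 708.0 and 701.9, and 708.0 and 494.3 for Z-138, against 556.1 and 647.4, 678.3 and 649.7, and 696.8 and 845.0 for Maver-1. In both genes Z-138 NIKsh#1 hardly differed with the drug. The differences between lines were -0.66 ± 0.23 for MRPS28 (limma adjusted p = 0.294) and -0.64 ± 0.23 for MRPL54 (limma adjusted p = 0.304). MRPL41 read 632.4 on the untreated Z-138 NTC array and between 178.4 and 230.4 on the other 5 Z-138 arrays, so its change of -1.60 in that culture rests on a single array. Its mean change in Z-138 was -0.69 in this probe set and -0.62, -0.73, -0.61 and -0.46 in the further ones. In Maver-1 it was 0.25 in this probe set and from -0.23 to -0.04 in the further ones.

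**Figure D2:**
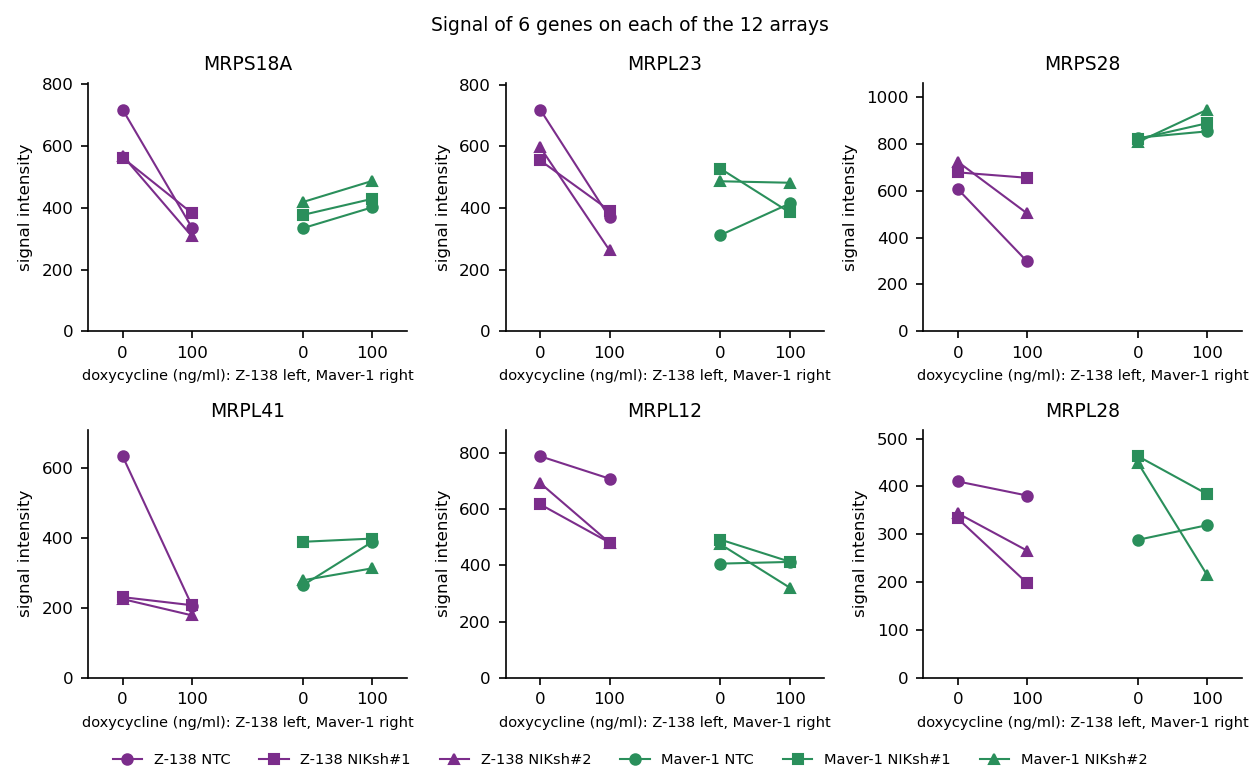
Signal intensity of 6 genes on every array, with lines joining the 2 arrays of a culture at 0 and 100 ng/ml doxycycline, Z-138 in purple on the left of each panel and Maver-1 in green on the right. MRPS18A runs down in all 3 Z-138 cultures and slightly up in all 3 Maver-1 cultures, and in MRPL41 the untreated Z-138 NTC array at 632.4 stands above the rest of that line.

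Signs that opposed each other between lines in every culture were seen for 8 members. MRPL33, MRPL41, MRPS17, MRPS18A, MRPS28 and MRPS35 were negative in all 3 Z-138 and positive in all 3 Maver-1 cultures, 8% of members against 2.38% of all genes. MRPL50 and MRPS23 had the reverse pattern, 2.67% against 3.98%. The direct test of the difference between lines passed for 0 members and 0 genes (0%), with 14 members under an unadjusted 0.05 against 13.7% of all genes. Without Z-138 NTC 1 member passed that test and without Z-138 NIKsh#1 3 did, MRPS18A both times (limma adjusted p = 0.0496 and 0.0266). The count of all genes passing it was also higher in 3 of the alternative runs and the same in 14, so these are not counts particular to the members. In Maver-1 alone the smallest p values were those of MRPL11 (-0.25 ± 0.10), MRPL12 (-0.26 ± 0.14), MRPL28 (-0.39 ± 0.22) and MRPL52 (0.14 ± 0.08), which were far from passing (limma adjusted p = 0.9995 for each). Further probe sets had mean changes in Maver-1 of 0.03 for MRPL12 and 0.02 for MRPL52. MRPL52 had signals of 1378.0 and 1463.0, 1230.7 and 1288.1, and 1256.4 and 1504.7 in the Maver-1 cultures and 1167.7 and 1204.0, 1272.1 and 1378.3, and 1136.7 and 1067.5 in those of Z-138.

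The change in Z-138 was also taken by subunit, with no test of the difference between subunits. The large subunit had a median of -0.15 with 41 of 50 negative and the small subunit 0.01 with 12 of 25 negative, while over Maver-1 the medians were -0.021 and -0.0029. Most of that gap lay in 2 cultures. In Z-138 NTC the medians were -0.08 for the large and 0.12 for the small subunit, in Z-138 NIKsh#2 they were -0.24 and -0.08, and in Z-138 NIKsh#1 the order was the other way, -0.09 and -0.14. Within the large subunit of Z-138, genes with a bacterial homologue had a median of -0.13 and those without one -0.19, and single large subunit genes ran from -0.88 to 0.33.

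A larger set of differences separated the lines themselves. The ACTB ratio also differed between the lines, lower in Z-138 without the drug and higher in it with the drug, and its part in these differences was not tested. Without doxycycline 40 of 75 members passed between Z-138 and Maver-1 against 60.2% of all genes, 26 higher in Z-138 (34.7% of members against 25.5% of genes) and 14 lower (18.7% against 34.8%). With each array shifted to a common median 40 were higher (53.3% against 32.4% of all genes) and 6 lower (8% against 27.7%), and the median difference of all genes was 0.04 in place of -0.08. After quantile normalization 30 were higher (40% against 30.9%) and 13 lower (17.3% against 30.3%). With the mean of all probe sets 32 were higher (42.7% against 26.6%) and 12 lower (16% against 30.1%). The median difference of the members was 0.12. Sizes were modest, with a median size of 0.26 against 0.43 for all genes, and 13 members (17.3%) differed by 1.5-fold or more against 38.3% of all genes.

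Of the large subunit 17 members were higher in Z-138 and 7 lower, and of the small subunit 9 were higher and 7 lower. The widest difference upward was that of MRPL38, a mitochondria-specific protein of the large subunit. Its signals were 633.9, 559.9 and 573.3 in untreated Z-138 (NTC, NIKsh#1, NIKsh#2) and 248.1, 238.5 and 249.5 in untreated Maver-1. The lines stood far apart, at 1.25 ± 0.10 on the log2 scale or 2.38-fold (limma adjusted p = 2.57e-07), and a further probe set gave 1.65. MRPL57, also mitochondria-specific, had 1483.8, 1236.0 and 1254.4 in Z-138 and 716.0, 652.4 and 628.0 in Maver-1, a 1.98-fold difference (limma adjusted p = 1.08e-06), and its 3 further probe sets were all higher in Z-138 too.

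MRPL33, a small protein with a bacterial homologue, read 1399.0, 1285.3 and 1220.6 in Z-138 and 722.2, 727.9 and 730.3 in Maver-1, with a difference of 0.84 ± 0.08 (limma adjusted p = 1.25e-06). MRPL58, a hydrolase that frees stalled ribosomes and is also a fixed part of the large subunit, read 1145.3, 1025.3 and 1045.5 against 529.3, 689.2 and 672.9, with a difference of 0.77 ± 0.11 (limma adjusted p = 3.50e-05). MRPL13 read 1551.2, 1679.6 and 1533.7 against 952.7, 972.5 and 873.5, with a difference of 0.77 ± 0.08 (limma adjusted p = 1.97e-06). The members described here were taken from those without overlap between the lines, so the gap in each follows from that choice. Among all members 33 had all 3 untreated Z-138 arrays above all 3 of Maver-1 (44%), against 27.9% of all genes. MRPS18A completes the 6 highest, at 0.70 ± 0.12 (limma adjusted p = 0.000252), from the untreated signals given above.

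Of the 6 lowest members described here, 5 belong to the small subunit, while the 14 passing lower were 7 of each subunit. MRPS12 read 473.7, 664.4 and 539.5 in Z-138 against 1304.2, 1291.7 and 1194.2 in Maver-1, a 2.27-fold lower signal (-1.18 ± 0.11, limma adjusted p = 1.10e-06), and its 3 further probe sets were lower as well. MRPS33, without a bacterial homologue, read 1282.1, 1206.2 and 1116.3 against 2145.2, 2271.4 and 2147.1 (-0.86 ± 0.07, limma adjusted p = 3.32e-07). MRPL48, of the large subunit, read 1341.6, 1151.7 and 1272.4 against 2111.7, 2137.5 and 2186.1 (-0.77 ± 0.07, limma adjusted p = 1.00e-06). That Z-138 and Maver-1 did not overlap in these 3 was again part of the choice. Among all members 18 had the untreated Z-138 arrays all below those of Maver-1 (24%), against 37.9% of all genes.

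MRPS6 read 1125.6, 1127.4 and 1158.3 in Z-138 and 1831.6, 1786.0 and 1914.9 in Maver-1, a difference of -0.70 ± 0.07. MRPS10 read 1100.1, 1149.4 and 1092.5 against 1640.8, 1552.2 and 1533.0, a difference of -0.50 ± 0.07. Its further probe sets did not follow, at 0.01 and 0.12, and with all its probe sets averaged the difference was -0.12 and did not pass (limma adjusted p = 0.285). MRPS34 read 516.0, 515.7 and 485.0 against 691.2, 714.6 and 584.0, a difference of -0.38 ± 0.10 (limma adjusted p = 0.00499). MRPL36 passed with a lower value, -0.42, but its arrays overlapped, at 878.8, 588.6 and 702.7 against 845.5, 1019.9 and 1003.0. Of the 60 further probe sets above the signal limit, from 35 of the genes, 39 had the same sign of line difference as the probe set used, and of the 25 that belong to passing genes 20 did, the exceptions being those of MRPL19, MRPL50 and MRPS10. For the doxycycline change in Z-138 the sign was shared by 31 of the 60, so the medians and sign counts given for that change rest on the probe sets used.

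**Figure D3:**
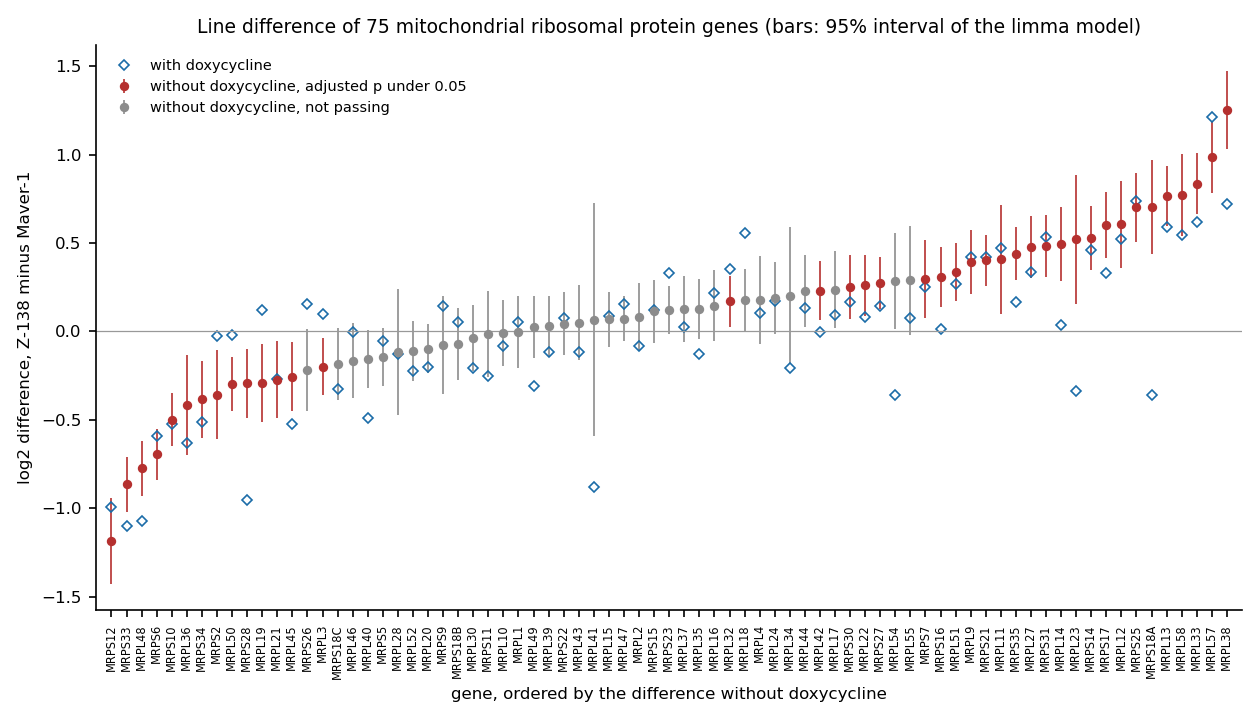
Difference between Z-138 and Maver-1 for all 75 genes on the log2 scale, ordered by the value without doxycycline. Filled points with 95% intervals are the 6 untreated arrays, red where limma's adjusted p was under 0.05, and open diamonds are the 6 arrays with doxycycline; MRPS18A, MRPL23, MRPL41 and MRPS28 have diamonds far below their points.

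The same contrast on the arrays with doxycycline, from the same cultures, passed for 23 members against 36.3% of all genes, 13 higher (17.3%, as for all genes at 17.3%) and 10 lower (13.3% against 19.1%). The median difference of the members was 0.06 and, without Z-138 NTC, -0.06. In both states 12 members were higher in Z-138 (16% against 14.9%) and 8 lower (10.7% against 17.4%). These 12 were MRPL9, MRPL13, MRPL27, MRPL32, MRPL33, MRPL38, MRPL57, MRPL58, MRPS14, MRPS21, MRPS25 and MRPS31, and the 8 were MRPL36, MRPL45, MRPL48, MRPS6, MRPS10, MRPS12, MRPS28 and MRPS33. Of the 40 passing without the drug, 35 kept their sign with it, and MRPL3, MRPL19, MRPL23, MRPL42 and MRPS18A did not. None passed in opposite directions, where 0.026% of all genes did.

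The highest and lowest members with doxycycline were largely those named without it. MRPL57 led at 1.21 ± 0.16 (limma adjusted p = 0.000443), from 1581.3, 1177.8 and 1376.1 in Z-138 against 620.0, 678.4 and 485.0 in Maver-1. MRPS25, of the small subunit, followed with 860.5, 754.5 and 875.0 against 507.6, 464.5 and 513.6, at 0.74 ± 0.13 (limma adjusted p = 0.00212). MRPL38 had 514.7, 368.4 and 437.1 against 279.5, 286.4 and 229.3, at 0.72 ± 0.18 (limma adjusted p = 0.0141), a smaller gap than without the drug. MRPL33 (1344.3, 1231.8 and 986.4 against 774.2, 730.4 and 790.6), MRPL13 (1534.9, 1464.6 and 1308.0 against 954.6, 1048.2 and 861.1) and MRPL58 (1005.4, 1026.3 and 817.4 against 669.1, 572.5 and 704.0) were at 0.62 ± 0.14, 0.59 ± 0.12 and 0.55 ± 0.14.

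Among the lower members MRPS33 had 1083.6, 993.2 and 923.7 in Z-138 against 2230.7, 2077.9 and 2122.1 in Maver-1 (-1.10 ± 0.10, limma adjusted p = 3.83e-05), and MRPL48 had 1067.9, 1099.5 and 943.3 against 2252.8, 2163.5 and 2122.5 (-1.07 ± 0.10, limma adjusted p = 4.24e-05). Both gaps were wider than without doxycycline, and the test of that is the difference between the lines in doxycycline change, which neither passed. MRPS12 had 702.5, 511.4 and 490.4 against 1228.1, 1123.4 and 1010.2 (-0.99 ± 0.16), and MRPL36 had 768.3, 544.3 and 524.5 against 969.7, 869.9 and 967.8 (-0.63 ± 0.16). MRPS28 (-0.95 ± 0.25) and MRPL41 (-0.88 ± 0.18, limma adjusted p = 0.00444) were among the 6 lowest with the drug and not without it. Leaving out Maver-1 NIKsh#1 ended the call with doxycycline for MRPL58 (limma adjusted p = 0.0695) and MRPS28 (0.0519), and leaving out Maver-1 NIKsh#2 ended it for MRPL38 (0.0564), MRPS28 (0.0566) and MRPL36 (0.0563). MRPL36 was also lost without Maver-1 NTC (0.0622) and without Z-138 NIKsh#2 (0.0540). For MRPL41 the line difference without it was 0.07 ± 0.31 in the probe set used and -0.31 to -0.67 in 4 others, and with it -0.85 to -0.96 in those 4. MRPS18A, 1.63-fold higher in Z-138 without doxycycline, was at -0.36 ± 0.16 with it (limma adjusted p = 0.111), all 3 Z-138 arrays then lying below all 3 of Maver-1.

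Position in the genome was compared for chromosomes with at least 6 members. On chromosome 17 the 8 members had a median line difference of 0.39 with 5 higher and 1 lower, beside 0.19 and 40.3% higher for its 699 genes. On chromosome 1 the 8 members had 0.24 with 3 higher and 0 lower, beside -0.05 and 24.2% for 1170 genes. The 7 members on chromosome 11 had 0.15 with 2 higher and 2 lower, beside -0.30 and 11.6% for 648 genes. The 6 on chromosome 6 had 0.13 (0.10 for 611 genes) and the 7 on chromosome 2 -0.04 (-0.13 for 738 genes). Copy number was not measured here.

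Other genes of mitochondrial gene expression were followed from lists of known factors. In Z-138 with doxycycline 0 of 14 translation factors, 0 of 18 aminoacyl-tRNA synthetases, 0 of 24 mitoribosome assembly factors, 0 of 18 genes of mitochondrial DNA transcription and RNA processing and 0 of 13 chaperones and proteases passed in either direction. Their medians were -0.03, 0.03, 0.04, 0.14 and 0.12, beside 0.04 for all genes and -0.12 for the mitoribosomal proteins. The 4 measured mitoribosomal proteins with other symbols, DAP3, PTCD3, CHCHD1 and GADD45GIP1, had a median of -0.12. TUFM, the elongation factor that brings transfer RNA, was at 0.25 ± 0.16, and GFM1, which moves the ribosome along the message, at 0.04 ± 0.15. POLRMT, the mitochondrial RNA polymerase, was at 0.59 ± 0.23 (limma adjusted p = 0.186) and TFAM, its activator, at -0.03 ± 0.08. None of these passed.

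The integrated stress response, which inhibition of mitochondrial translation can switch on in other cells, was followed as a list. In Z-138 0 of 17 genes were higher and 1 was lower, PSAT1 of serine synthesis, at -0.49 ± 0.09 (limma adjusted p = 0.0452), and the median was 0.07. ATF4, the transcription factor at its centre, was at 0.19 ± 0.07 and DDIT3 at 0.23 ± 0.20, neither of which passed. Over all 6 cultures these were 0.03 ± 0.07 and 0.12 ± 0.14. Of 65 nuclear genes of respiratory complexes that also hold mitochondrially encoded subunits, 0 passed in Z-138 and the median was -0.03. The 3 measured genes of complex II, which has no mitochondrially encoded subunit, had a median of -0.16, below that of the mitoribosomal proteins, and 0 passed. Of the cytosolic ribosomal proteins in that line 12 of 52 measured genes were higher (23.1%, against 0.719% of all genes), 0 were lower and the median was 0.17. RPL38 (0.24 ± 0.04, limma adjusted p = 0.0413) and RPS28 (0.42 ± 0.08, limma adjusted p = 0.0444) are examples. Its medians in Z-138 were 0.21, 0.16 and 0.16 in NTC, NIKsh#1 and NIKsh#2, and -0.03, -0.12 and 0.02 in Maver-1. In Maver-1 0 genes passed in any of these lists.

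**Figure D4:**
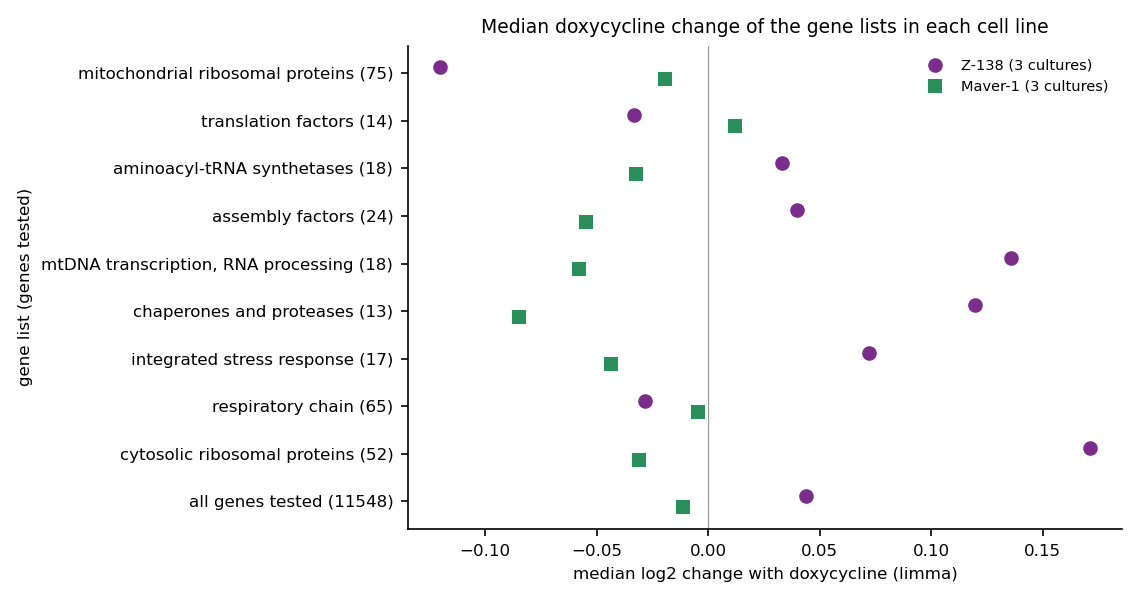
Median log2 change with doxycycline of each gene list in the 3 Z-138 cultures (purple circles) and the 3 Maver-1 cultures (green squares), with the number of genes tested in brackets. Among the lists drawn, the mitochondrial ribosomal proteins are at -0.12 in Z-138 and the cytosolic ribosomal proteins at 0.17; respiratory complex II, with 3 genes at -0.16, is not drawn.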

How the data were processed

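RNA from 12 samples was amplified with NuGEN Ovation chemistry and hybridised to 1-colour Affymetrix arrays, per the labels' protocols. The deposited values are signal intensities per probe set, made with MAS5 per the submitters' processing notes, and each array shared 1 trimmed mean (150.02 with 2% cut from each end), so the authors had scaled them. The platform annotation names 1 gene for 41097 of the 54675 probe sets, several for 1801 and none for 11777. For each gene the probe set with the highest mean log2(signal + 3) was kept, with 11548 of 19775 genes at a mean of 12.55 or more, the median of the array medians. Values were taken as log2(signal + 3) and fitted with limma 3.58.1 (lmFit, eBayes with an intensity trend) in R 4.3.3, with Benjamini-Hochberg adjustment over all genes kept. The procedure was tested on simulated data.

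Doxycycline changes were fitted with the culture as a block, since the labels give each culture 1 array with and 1 without the drug. The fits by line and by hairpin used all 12 arrays, with 1 spread per gene shared by both lines and all hairpins. Deviations of paired arrays had a correlation of -0.038 for Z-138 and of 0.202 for Maver-1. The number of arrays limits the precision, with 1 array per group in NTC. Members, gene lists and tests were chosen with earlier results of these data known. Any member could be named. Values on every array were given for members that passed, or for the 6 highest and 6 lowest without overlap where over 12 passed, and otherwise for up to 4 with the smallest p. Of other lists, up to 4 genes with the smallest p and 6 preset factors could be named. MRPL23, MRPL54 and MRPL41 in Z-138 were chosen after their values were seen where they fall outside this. Alternatives covered the pseudocount, filter, normalization, probe set, variance trend, array weights, block and left-out cultures.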

Additional observations from a re-analysis of the deposited data

Results flagged for a closer look

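MRPS12 had 1 culture apart from the rest in its change with doxycycline. Z-138 NTC was at 0.57 while the other 5 cultures lay between -0.38 and -0.09, and the gap made up 0.693 of the whole range, above Dixon's limit of 0.625 for 6 values. This holds for the probe set used, whose mean change in Z-138 was 0.02. The further probe sets of MRPS12 had means of -0.51, -1.44 and -0.54 there, and were not checked by culture. Chance passes that limit in about 1 in 20 groups, and 17 groups were checked.

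For 8 members all 3 cultures of one line moved opposite to all 3 of the other, in the probe set used. As averages by line, the further probe set of MRPS18A shared its pattern, and those of MRPL41, MRPL50 and MRPS23 did not. The differences of Z-138 minus Maver-1 were -1.064 for MRPS18A, -0.9436 for MRPL41, -0.6591 for MRPS28, -0.2753 for MRPS35, -0.2744 for MRPS17, -0.2147 for MRPL33, 0.205 for MRPS23 and 0.2754 for MRPL50. The limma test of the difference passed for none of the 8 over all genes, with adjusted p = 0.149 for MRPS18A.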

How the results depend on the processing

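The count of members passing in Z-138 (1) was 0 with no filter, with quantile normalization, with the mean of all probe sets and with no intensity trend, 2 with a filter at the 75th percentile, 3 with array weights, and 0 to 6 with a culture left out. The random replicate block gave 3, no replicate block gave 1, and no other count of members with doxycycline moved under either. The count of all genes passing in Z-138 was higher in 4 of the alternative runs and lower in 10, so the counts of members did not move alone. The difference of the lines in doxycycline change passed for 1 member with array weights and for 0 to 3 with a culture left out, and its median of -0.09 was -0.18 with the mean of all probe sets. The count of all genes passing for that difference was also higher in 3 runs. The NTC median ran from -0.057 to 0.046 with a culture left out. The median line difference without doxycycline (0.12) was 0.25 with arrays shifted to a common median, 0.21 with the mean of all probe sets, and 0.065 to 0.149 with a culture left out. With doxycycline (0.06) it was 0.13 with shifted arrays and -0.063 to 0.116 with a culture left out. The cause of these moves was not tested. No passing result changed sign in any alternative run. A lone array left in a group is assumed to vary like the others.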
